A study of Mus musculus with 14 samples.

Results

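The genes described here are Ly6a, Ly6c1, Ly6c2 and Ly6e, members of the Ly6 family of surface proteins whose genes lie close together on mouse chromosome 15. They were taken as the rows with these symbols in the deposited tables of normalized counts, and all 4 were listed in both tables, out of 15036 genes listed in either table and 12539 listed in both. They were selected on their normalized counts in libraries labelled Morrbid-/- against wild-type libraries within each table. Their genotype differences are therefore given as values with errors and without a test.

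The RNA came from splenic CD8 T cells of C57BL/6 mice, sorted as naive by high CD62L and low CD44, and total RNA libraries were sequenced. The cells were labelled as lacking Morrbid, a long noncoding RNA gene, on both alleles or as wild type, and all of them were activated for 6 h on plates coated with anti-CD3 (1 µg/mL), with anti-CD28 in solution at the same concentration. There were 4 libraries labelled Morrbid-/- and 4 wild-type libraries with 20 ng/mL IFN-beta, a type I interferon, and 3 libraries labelled Morrbid-/- and 3 wild-type libraries without it. Unstimulated cells were not analysed here, so every level below is a level in activated cells. The labels give no age of the mice and do not say whether replicates came from separate animals, so p-values reflect the spread between libraries and that spread may be technical.

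Ly6 proteins are small, cysteine-rich proteins held on the outer cell membrane by a glycosylphosphatidylinositol (GPI) anchor. Ly6a encodes Sca-1, used with Kit to isolate blood stem cells and known in T cells as an antigen that rises with activation and with interferon. Ly6c1 and Ly6c2 encode the near-identical forms of Ly6C, carried by memory CD8 T cells and, at high level, by inflammatory monocytes. Ly6e encodes a broadly made, interferon-inducible member first described on thymocytes and known to restrict the entry of coronaviruses.

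On the GRCm38 build with GENCODE M21 gene models, Ly6e lay at chr15:74955051-74959905 on the plus strand and the other members on the minus strand, Ly6a at chr15:74994877-74998031, Ly6c1 at chr15:75044018-75048830 and Ly6c2 at chr15:75108158-75111970. The first 120 coding bases of the Ly6c pair, are shown because they hold 6 of the differences by which reads of the pair can be told apart. Capitals mark the positions at which the pair differs, and every other base is the same.
Ly6c1: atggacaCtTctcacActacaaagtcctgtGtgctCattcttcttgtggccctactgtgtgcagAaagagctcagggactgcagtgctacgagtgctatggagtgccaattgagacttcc
Ly6c2: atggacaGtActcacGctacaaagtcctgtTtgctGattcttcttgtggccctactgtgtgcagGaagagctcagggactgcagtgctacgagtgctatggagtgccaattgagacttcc
The pair matched at 387 of 396 coding bases (97.7%), with 9 substitutions counted from 1 at the A of the start codon, the base of Ly6c1 first: C8G, T10A, A16G, G31T, C36G, A65G, G254A, T327C and G376A. The longest identical run, 188 bases, lay between A65G and G254A. Of the 322 stretches of 75 bases in either coding sequence, the length of 1 read, 114 (35.4%) also occurred in the other. No coding stretch of that length was shared between any other pair of members. The coding identity of Ly6a was 82% with Ly6c1 and 81.7% with Ly6c2, and that of Ly6e with the other members was 49.9% to 52.6%.

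Over whole transcripts 19% of the 75-base stretches of Ly6c1 occurred in another gene, namely 259 of 1764 in Ly6c2 and 77 in Ly6a. For Ly6c2 the share was 9.46%, all of it with Ly6c1, and for Ly6a it was 6.33%. Ly6e shared none of its 4384 stretches. No source used here says how reads that match several genes were treated, so the split between Ly6c1 and Ly6c2 is uncertain and their sum is given as well.

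The libraries with IFN-beta held 5788070 to 7355337 reads assigned to genes, and those without held 1747634 to 2963149. With IFN-beta, libraries labelled Morrbid-/- were deeper than wild-type ones, at 7132515 to 7355337 against 5788070 to 6918633 reads. Without IFN-beta, Morrbid itself, listed as Gm14005, had 7.10, 5.24 and 7.16 normalized counts in libraries labelled Morrbid-/- and 1.79, 4.16 and 1.53 in wild-type libraries. Those values rest on 18 reads against 8 and were higher in the libraries labelled Morrbid-/-. The labels do not give the deleted interval, so this check of the labels is unresolved. The groups are therefore called the libraries labelled Morrbid-/- throughout. With IFN-beta Morrbid was not analysed here.

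With IFN-beta, Ly6a was well measured in every library. It had 1051, 864, 1021 and 911 normalized counts in the libraries labelled Morrbid-/- and 635, 596, 524 and 597 in wild-type libraries. The genotypes did not overlap, and the lowest library labelled Morrbid-/- exceeded the highest wild-type library by more than the whole wild-type range. Mean normalized counts were 962 ± 88.5 and 588 ± 46.1 (SD, n = 4 each). The log2 difference, labelled Morrbid-/- minus wild type on log2(normalized count + 1), was 0.71 with an SE of 0.08. In bulk RNA, more cells making a transcript and more transcript per cell cannot be told apart.

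Without IFN-beta, Ly6a showed the widest genotype difference of the members that reached the filter. It had 24.3, 26.2 and 24.6 normalized counts in the libraries labelled Morrbid-/- and 0.894, 5.20 and 0.764 in wild-type libraries. Again every library labelled Morrbid-/- stood above every wild-type library, and the wild-type values were close to nothing in replicates 1 and 3, each of which rested on a single read. The means were 25.0 ± 1.02 and 2.29 ± 2.53 normalized counts (SD, n = 3 each).

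The log2 difference of Ly6a without IFN-beta was 3.24 with an SE of 0.49. It moved to 3.83 without wild-type replicate 2, the library with the highest wild-type value. The reads behind it numbered 68 against 7, a ratio of read rates of 12.1 with a 95% counting interval of 5.55 to 31.1. Such intervals cover counting error only, because the reads carry no molecular identifiers and several may stem from 1 molecule. With its wild-type level, Ly6a reached the filter, a mean of at least 10, through the libraries labelled Morrbid-/-.

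Although the ratio was smaller with IFN-beta, the difference of the means was larger, 374 normalized counts with IFN-beta and 22.7 without it, on the separate scales of the tables. Both tables were normalized separately, so the change of the log2 difference was taken between within-table differences. For Ly6a that change, with minus without IFN-beta, was -2.54 with an SE of 0.35 and a 95% interval of -3.27 to -1.81. It was -3.12 without wild-type replicate 2 and -1.39 with a pseudocount of 5 in place of 1. The change rests on the wild-type level without IFN-beta, which was 7 reads over 3 libraries.

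Ly6e was well measured in every library of both tables. With IFN-beta it had 1562, 1480, 1498 and 1668 normalized counts in the libraries labelled Morrbid-/- and 1150, 1295, 1199 and 1348 in wild-type libraries. All libraries labelled Morrbid-/- lay above all wild-type libraries. Their means of 1552 ± 85.2 and 1248 ± 89.9 (SD, n = 4 each) differed by 0.32 on the log2 scale, with an SE of 0.06.

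Without IFN-beta, Ly6e had 252, 280 and 253 normalized counts in the libraries labelled Morrbid-/- and 183, 185 and 206 in wild-type libraries. The order of the genotypes was the same and they did not overlap. Their means of 262 ± 16 and 192 ± 12.8 (SD, n = 3 each) differed by 0.45 on the log2 scale, with an SE of 0.11. Between stimulations the log2 difference changed by -0.13 with an SE of 0.11 and a 95% interval of -0.37 to 0.10.

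Ly6c2 had low counts without IFN-beta and moderate counts with it. With IFN-beta it had 111, 89.8, 141 and 128 normalized counts in the libraries labelled Morrbid-/- and 68.4, 46.1, 59.6 and 55.7 in wild-type libraries. The genotypes did not overlap. The means were 117 ± 22.1 and 57.4 ± 9.27 (SD, n = 4 each), and the log2 difference of 1.01 with an SE of 0.16 was the largest of the members with IFN-beta. It rested on 516 reads against 211.

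Without IFN-beta, Ly6c2 had 6.08, 13.1 and 7.16 normalized counts in the libraries labelled Morrbid-/- and 4.47, 5.20 and 5.35 in wild-type libraries. The genotypes did not overlap, but replicate 2 labelled Morrbid-/- stood well above the rest. The reads numbered 23 against 17, and the ratio of read rates of 1.68 had a 95% counting interval of 0.859 to 3.35, for counting error alone. Ly6c2 stayed below the filter there, with a mean of 6.89 over all libraries. Fitted without the filter, its log2 difference was 0.64 with an SE of 0.46, and the change between stimulations was 0.37 with a 95% interval of -0.35 to 1.1.

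Ly6c1 was hardly measured in these cells. With IFN-beta it had 4.58, 3.67, 8.99 and 2.74 normalized counts in the libraries labelled Morrbid-/- and 14.2, 3.07, 4.67 and 3.91 in wild-type libraries. The genotypes overlapped, and the highest value belonged to a wild-type library. Without IFN-beta it had 1, 0 and 2 reads in the libraries labelled Morrbid-/- and none in the wild-type libraries, at or under the limit of 3 reads that a count of 0 allows.

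The Ly6c1 means with IFN-beta were 4.99 ± 2.77 and 6.45 ± 5.18 normalized counts (SD, n = 4 each), from 22 reads against 23. Its log2 difference of -0.21 had an SE of 0.47 and was 0.21 without wild-type replicate 1.

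Ly6c2 supplied most reads of the pair in every group. Its share with IFN-beta was 95.9% in the libraries labelled Morrbid-/- (516 of 538 reads, exact 95% interval 93.9% to 97.4%) and 90.2% in wild-type libraries (211 of 234, 85.6% to 93.7%). In single wild-type libraries the share was 82.9% in replicate 1 and 92.7% to 93.8% in the others, against 94% to 97.9% in the libraries labelled Morrbid-/-. Without IFN-beta it was 88.5% (23 of 26 reads, 69.8% to 97.6%) in the libraries labelled Morrbid-/- and 100% (17 of 17, 80.5% to 100%) in wild-type libraries.

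The sum of the pair does not depend on how shared reads were divided between them. Shared reads that were dropped, or counted for both genes, would still affect the sum. With IFN-beta the summed level was 122 ± 23.9 normalized counts in the libraries labelled Morrbid-/- and 63.9 ± 14 in wild-type libraries (SD, n = 4 each). That is 0.93 higher on the log2 scale, with an SE of 0.16. Without IFN-beta the sum was 9.80 ± 3.04 and 5.01 ± 0.472 (SD, n = 3 each), and the log2 difference was 0.81 with an SE of 0.45. The ratio of read rates there, 1.9, had a counting interval of 0.992 to 3.73.

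**Figure D1:**
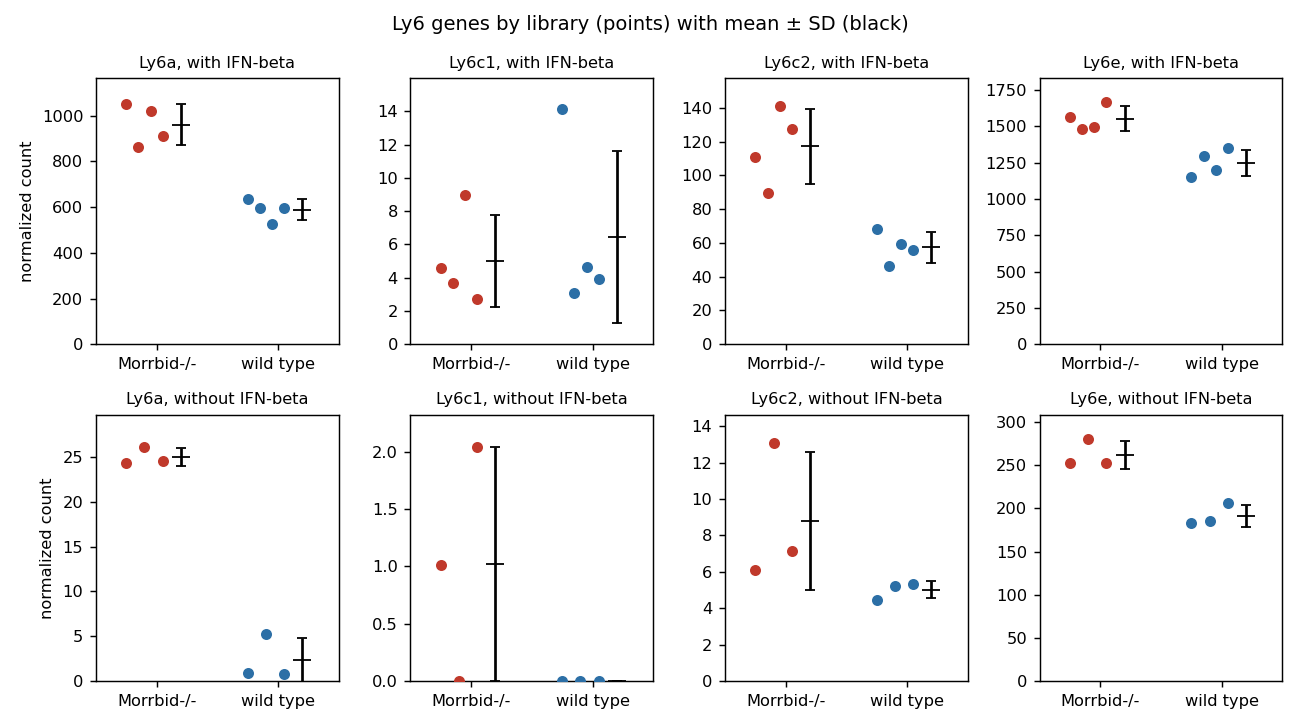
Normalized count of each Ly6 gene (vertical axes, from 0, one scale per panel) in every library, with libraries labelled Morrbid-/- in red and wild type in blue, and the mean ± SD beside them in black. Ly6a, Ly6c2 and Ly6e show no overlap of genotypes in either row, while Ly6c1 overlaps with IFN-beta, where 1 wild-type library reaches 14.2.

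Counts of calls are given beside the same counts over all genes. A gene was called at a Benjamini-Hochberg adjusted p under 0.05 from limma. With IFN-beta, 5.25% of 9964 tested genes were called higher in the libraries labelled Morrbid-/- and 4.84% lower, and of the 3 members tested 3 were called higher. Without IFN-beta, 0.538% of 9290 tested genes were called higher and 0.0969% lower, and of the 2 members tested Ly6a was called higher and Ly6e was not called. These contrasts chose the members, so nothing is read from those counts. Every library labelled Morrbid-/- stood above every wild-type library for 7.58% of tested genes with IFN-beta and 5.53% without it, and below every one for 7.6% and 5.39%.

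Levels are compared between genes as RPKM, the reads scaled to the length of the principal transcript and to the reads of the library. With IFN-beta, Ly6a came first at 178 ± 17.2 RPKM in the libraries labelled Morrbid-/- and 106 ± 7.97 in wild-type libraries, ahead of Ly6e at 103 ± 4.43 and 80.8 ± 6.17. Ly6c2 followed at 21.7 ± 4.03 and 10.3 ± 1.61, and Ly6c1 was last at 0.901 ± 0.505 and 1.12 ± 0.895. No neighbours in this order overlapped within a genotype.

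Without IFN-beta the order differed, and Ly6e came first at 49.3 ± 4.51 RPKM in the libraries labelled Morrbid-/- and 34.9 ± 4.41 in wild-type libraries. In the libraries labelled Morrbid-/- Ly6a was next at 13.1 ± 1.02, then Ly6c2 at 4.62 ± 2.08. In wild-type libraries Ly6c2 at 2.53 ± 0.365 and Ly6a at 1.14 ± 1.25 overlapped, and their order turned with the length over all exons, at 0.76 for Ly6c2 and 0.777 for Ly6a. Ly6c1 was last in both genotypes.

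**Figure D2:**
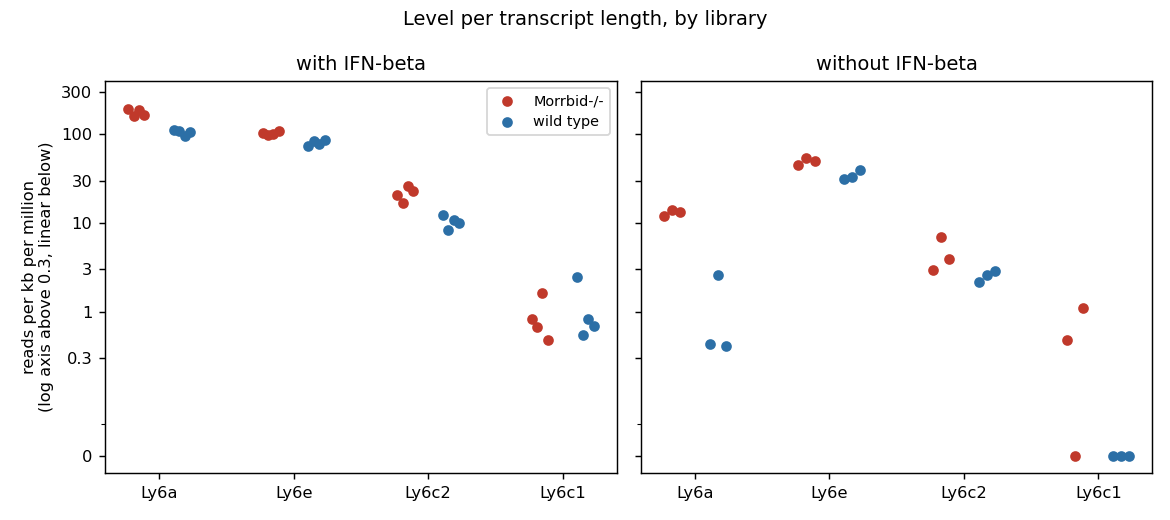
RPKM over the principal transcript (log axis above 0.3, linear below) for each Ly6 gene and library, with libraries labelled Morrbid-/- in red, left of wild type in blue. Ly6a lies highest with IFN-beta and Ly6e highest without it, and the wild-type points of Ly6a without IFN-beta fall among or below those of Ly6c2.

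Side by side as RPM, the reads scaled to library size alone, and with no test across the tables, every Ly6 member except Ly6c1 had its lowest library with IFN-beta above its highest library without it, in each genotype. Ly6a had 146 ± 14.1 RPM with IFN-beta and 10.8 ± 0.836 without it in the libraries labelled Morrbid-/-, and 86.8 ± 6.53 and 0.936 ± 1.02 in wild-type libraries. Ly6e had 236 ± 10.1 and 113 ± 10.3 in the libraries labelled Morrbid-/-, and 184 ± 14.1 and 79.6 ± 10.1 in wild-type libraries. Ly6c2 had 17.8 ± 3.32 and 3.8 ± 1.71 in the libraries labelled Morrbid-/-, and 8.48 ± 1.32 and 2.08 ± 0.3 in wild-type libraries. Ly6a in the libraries labelled Morrbid-/- without IFN-beta lay below wild-type Ly6a with it. The stimulations also differ in depth and in table, and the part of either in these levels cannot be told apart from that of IFN-beta.

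Few other genes of the Ly6 and uPAR family reached the filter, and none passed by limma, edgeR or DESeq2. At an unadjusted limma p under 0.05, 1 was lower with IFN-beta and 0 differed without it. Of 41 other family genes, 6 were listed with IFN-beta and 3 tested, with a median log2 difference of 0.10. Without IFN-beta 8 were listed and 2 tested, with a median of -0.34. The median over all genes tested was 0.00 with IFN-beta and -0.01 without it. Plaur, which encodes the urokinase receptor, had 7.09 ± 6.72 normalized counts in the libraries labelled Morrbid-/- and 13.5 ± 0.446 in wild-type libraries with IFN-beta (limma adjusted p = 0.105). Without IFN-beta it had 27.9 ± 7.19 and 39.8 ± 10.6 (limma adjusted p = 0.825). Ly6i, which lies between Ly6e and Ly6a, had 23 reads in the libraries labelled Morrbid-/- and 14 in wild-type libraries with IFN-beta, below the filter.

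Genes on the same stretch of chromosome 15 were set beside all genes, of which 5.25% were called higher and 4.84% lower with IFN-beta. Of 49 neighbours, 17 were tested with IFN-beta, of which 2 rose and none fell by limma, edgeR or DESeq2, with a median log2 difference of -0.02. At an unadjusted limma p under 0.05, 2 were higher and 1 lower. Plec, which encodes the cytoskeletal linker plectin, averaged 1329 ± 132 normalized counts in the libraries labelled Morrbid-/- and 935 ± 83.0 in wild-type libraries (log2 0.51, limma adjusted p = 7.98e-05). Grina averaged 215 ± 28.5 and 163 ± 6.86 (log2 0.39, limma adjusted p = 0.0207). Their starts lie 1235 and 1249 kb from that of Ly6a, beyond tested genes that were not called. Without IFN-beta 14 neighbours were tested and none passed by limma, edgeR or DESeq2, nor at an unadjusted limma p under 0.05 (0 of 14), with a median of -0.06.

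**Figure D3:**
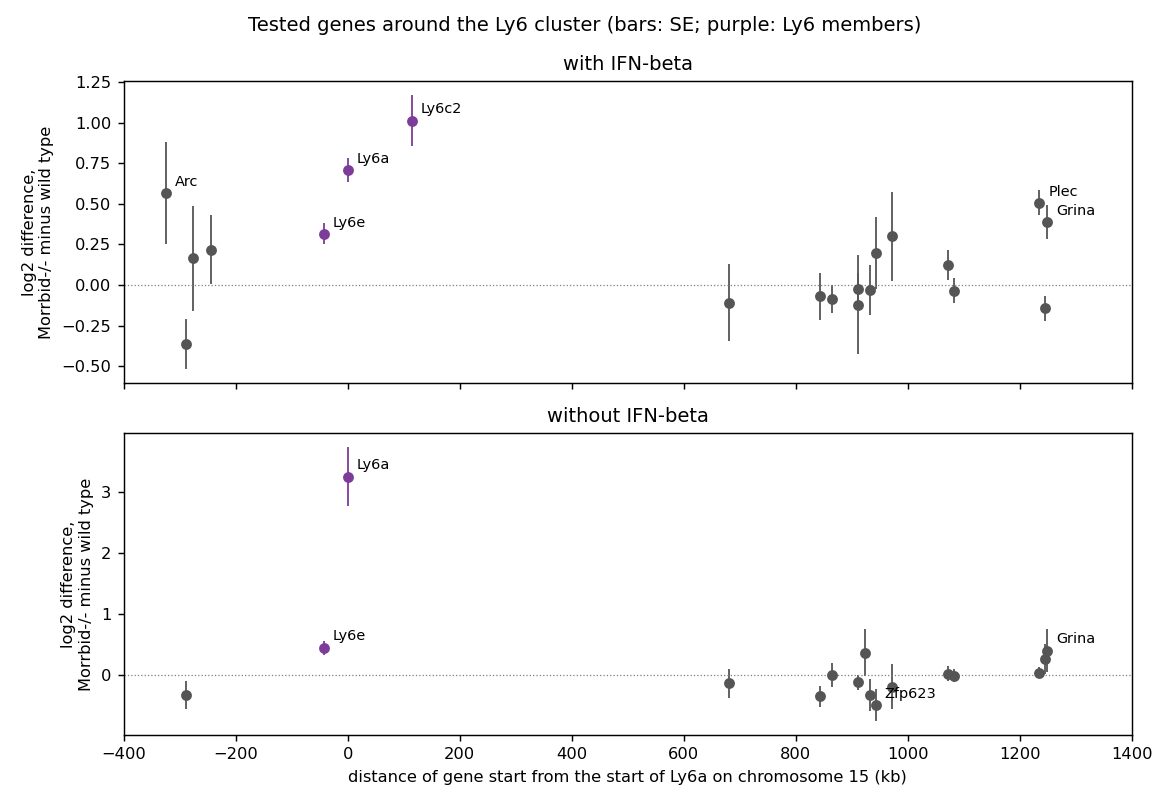
Log2 difference, labelled Morrbid-/- minus wild type, of each tested gene by the distance of its start from that of Ly6a in kb, with SE bars and the Ly6 members in purple. The tested Ly6 members stand above 0 within 113.9 kb of the start of Ly6a. Ly6c1 was below the filter and is not drawn, and Ly6c2 is drawn only with IFN-beta. Plec and Grina lie at the far right, where they were called with IFN-beta.

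The interferon response is the program through which Ly6a and Ly6e are known to be induced, and with IFN-beta its genes were called in both directions. Of 51 such genes other than the members, 50 were tested, of which 10 rose and 8 fell, with a median log2 difference of -0.02. Over all genes tested with IFN-beta, 5.25% were called higher and 4.84% lower. Ifi44 averaged 808 ± 104 normalized counts in the libraries labelled Morrbid-/- and 439 ± 54.1 in wild-type libraries (log2 0.88, limma adjusted p = 1.30e-06), and Isg15, a ubiquitin-like modifier, averaged 246 ± 27.9 and 158 ± 13.4 (log2 0.64, limma adjusted p = 2.72e-04). Ifit1 fell to 21230 ± 1752, against 27550 ± 1806 in wild-type libraries (limma adjusted p = 2.01e-04), and Gbp2 fell to 31900 ± 780, against 41220 ± 701 (limma adjusted p = 2.80e-05).

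Without IFN-beta, 36 genes of the interferon response were tested, of which 17 rose and none fell, with a median log2 difference of 0.61. At an unadjusted limma p under 0.05, and by edgeR and DESeq2, 0 were lower as well. Over all 9290 genes tested there, 0.538% were called higher and 0.0969% lower. Ifit3, an antiviral protein, averaged 40.6 ± 9.94 normalized counts in the libraries labelled Morrbid-/- and 7.48 ± 2.13 in wild-type libraries (log2 2.30, limma adjusted p = 7.04e-05). Gbp2, a guanylate-binding protein, averaged 667 ± 74.2 and 190 ± 33.4 (log2 1.81, limma adjusted p = 6.17e-10). Ifit1 averaged 93.1 ± 7.94 and 36.5 ± 10.3 (log2 1.36, limma adjusted p = 1.70e-04), and Usp18, a brake on interferon receptor signalling, averaged 28.6 ± 0.216 and 10.8 ± 2.15 (log2 1.34, limma adjusted p = 0.0284). Ifit1 and Gbp2 thus moved in opposite directions in the separate tables, while Ly6a was higher in the libraries labelled Morrbid-/- in both. Ly6a was not alone in this. The log2 difference was above 0 for all 36 tested interferon response genes without IFN-beta and for 24 of 50 with it. Over all genes tested it was above 0 for 4515 of 9290 without IFN-beta and 5014 of 9964 with it.

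Genes of the machinery that builds GPI anchors were set beside the same shares of all genes, 5.25% higher and 4.84% lower with IFN-beta. Of 35 anchor assembly genes, 31 were tested with IFN-beta, of which 2 fell and none rose by limma, edgeR or DESeq2, while 5 were lower and 2 higher at an unadjusted limma p under 0.05. Tmed5, which carries GPI-anchored cargo out of the endoplasmic reticulum, averaged 905 ± 101 normalized counts in the libraries labelled Morrbid-/- and 1160 ± 111 in wild-type libraries (log2 -0.36, limma adjusted p = 0.00438). Mppe1, which remodels the anchor, averaged 647 ± 29.4 and 828 ± 61.6 (log2 -0.35, limma adjusted p = 0.00179). Without IFN-beta none of 29 tested passed by limma, edgeR or DESeq2, nor at an unadjusted limma p under 0.05 (0 of 29), with a median log2 difference of 0.07, and Pigk had the smallest p (log2 0.25, limma adjusted p = 0.84).

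Genes of other GPI-anchored proteins of lymphocytes were called in both directions with IFN-beta. With IFN-beta, 15 of 28 were tested, of which 1 rose and 2 fell, beside 5.25% higher and 4.84% lower of all genes tested. Bst2 (tetherin), which is also an interferon response gene, averaged 555 ± 41.8 normalized counts in the libraries labelled Morrbid-/- and 450 ± 61.9 in wild-type libraries (limma adjusted p = 0.0305). Nt5e (CD73) averaged 836 ± 59.5 and 1040 ± 43.2 (limma adjusted p = 0.00299), and Cd48 averaged 239 ± 22.3 and 294 ± 13.5 (limma adjusted p = 0.0358). Without IFN-beta none of 14 tested passed by limma, edgeR or DESeq2, while 2 were higher and 2 lower at an unadjusted limma p under 0.05. Among them Thy1, an abundant surface protein of mouse T cells, averaged 258 ± 23.7 and 318 ± 30.3 (limma adjusted p = 0.582).

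Because Ly6C is a marker of memory-phenotype CD8 T cells, genes of that state and of the naive state were set beside it. Among all genes tested with IFN-beta, 5.25% were called higher and 4.84% lower. Of 12 memory-phenotype genes tested with IFN-beta, 2 rose and none fell by limma, edgeR or DESeq2, while 4 were higher and 1 lower at an unadjusted limma p under 0.05. Cd44, the marker by which the cells had been sorted as low, averaged 34.1 ± 8.91 normalized counts in the libraries labelled Morrbid-/- and 18.2 ± 6.59 in wild-type libraries (log2 0.89, limma adjusted p = 0.04). Id2, a regulator of effector cells, averaged 260 ± 34.1 and 191 ± 31.4 (log2 0.45, limma adjusted p = 0.017). Of 18 naive-state genes tested with IFN-beta, 6 rose as well and none fell by limma, edgeR or DESeq2, while 7 were higher and 5 lower at an unadjusted limma p under 0.05. The median over the 18 was 0.07, with log2 differences of 0.52 for Lef1 (limma adjusted p = 7.59e-05), 0.51 for Ccr7 (limma adjusted p = 1.68e-04) and 0.41 for Tcf7 (limma adjusted p = 1.05e-04).

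Without IFN-beta, 1 of 9 memory-phenotype genes tested rose and 1 of 17 naive-state genes fell. Over all genes tested, 0.538% were called higher and 0.0969% lower. At an unadjusted limma p under 0.05, 2 memory-phenotype genes were higher and 1 lower, and 0 naive-state genes were higher and 5 lower. The log2 difference was above 0 for 6 of 9 memory-phenotype genes, 2 of 17 naive-state genes and 4515 of all 9290 genes tested. Eomes, a transcription factor of memory cells, averaged 92.8 ± 7.84 normalized counts in the libraries labelled Morrbid-/- and 52.2 ± 11.8 in wild-type libraries (log2 0.84, limma adjusted p = 0.0223), a call that DESeq2 did not make. Ccr9, a gut-homing receptor, averaged 63.3 ± 12.6 and 118 ± 36.5 (log2 -0.86, limma adjusted p = 0.0266).

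**Figure D4:**
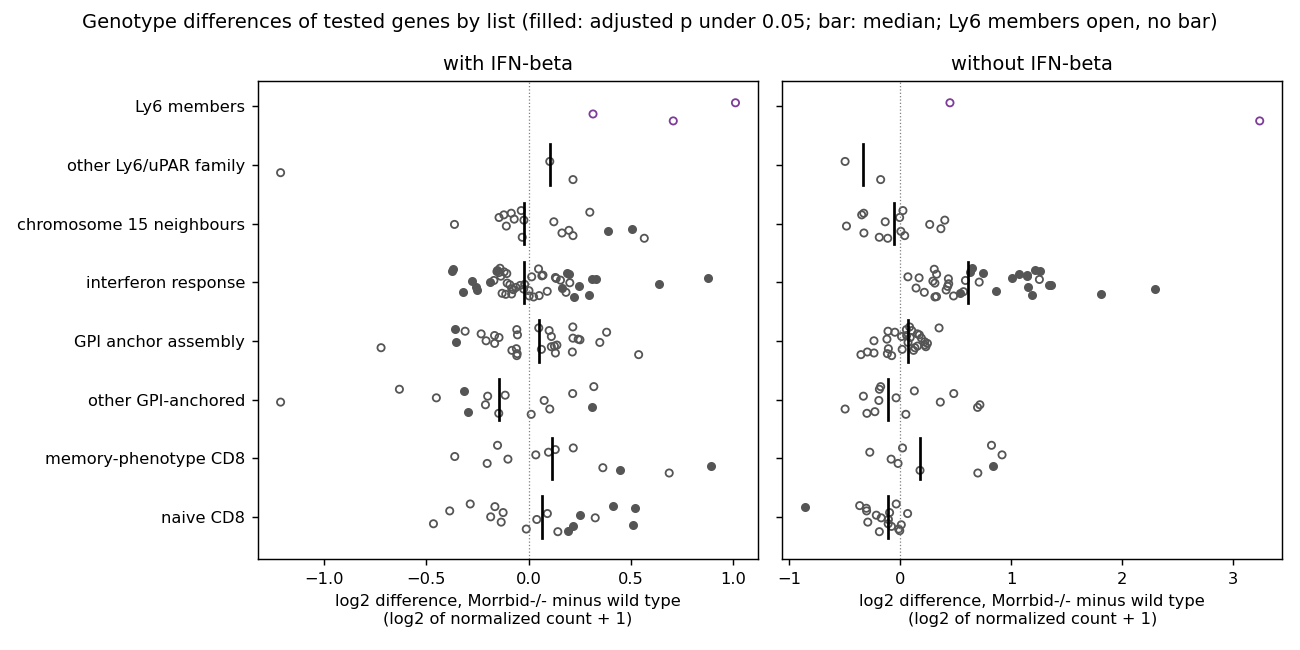
Log2 difference, labelled Morrbid-/- minus wild type, of each tested gene in the lists (rows), filled where the adjusted p was under 0.05, with the median as a bar. The Ly6 members are drawn open whatever their call and carry no bar. The interferon response is centred near 0 with IFN-beta, with a median of -0.02, and lies to the right of 0 without it, with a median of 0.61.

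All 17 identity genes of CD8 T cells reached the filter in both tables, and none was called between genotypes in either by limma, edgeR or DESeq2. At an unadjusted limma p under 0.05, 0 were higher and 3 lower with IFN-beta, and 1 was higher and 2 lower without it. Cd8a had 2315 to 2552 normalized counts in the libraries labelled Morrbid-/- and 2349 to 2521 in wild-type libraries with IFN-beta, and 696 to 811 and 754 to 919 without it. Summed, the identity genes with IFN-beta stood at 25820 to 26920 in the libraries labelled Morrbid-/- and 27280 to 28600 in wild-type libraries, with no overlap. The part of this shift in the Ly6 differences was not tested.

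Monocytes carry much Ly6C, so their genes were set beside Ly6c2. With IFN-beta 5 of 16 monocyte genes were listed, and their summed normalized counts overlapped, at 85.8 to 141 in the libraries labelled Morrbid-/- and 98.6 to 142 in wild-type libraries. Without IFN-beta 11 of 16 were listed, at 23.5 to 31.4 and 22.2 to 38.4. There Chil3 was at 0 and Csf1r at 0 to 1.31 in the libraries labelled Morrbid-/- and 0 in wild-type libraries. Of the 3 monocyte genes tested with IFN-beta, 1 had a log2 difference above 0, and the median was -0.08. Ccr2 averaged 7.735 ± 2.37 normalized counts in the libraries labelled Morrbid-/- and 18.15 ± 8.5 in wild-type libraries there (log2 -1.03, limma adjusted p = 0.0997). Cd68, a lysosomal protein of macrophages, averaged 23.6 ± 7.35 normalized counts in the libraries labelled Morrbid-/- and 14.6 ± 0.921 in wild-type libraries with IFN-beta (log2 0.62, limma adjusted p = 0.164). Without IFN-beta, where no other monocyte gene reached the filter, it averaged 13.2 ± 5.7 and 7.23 ± 2.62 (log2 0.75, limma adjusted p = 0.868). No monocyte gene was called in either table by limma, edgeR or DESeq2. At an unadjusted limma p under 0.05, 1 was higher and 1 lower with IFN-beta, and 0 differed without it. The part of the monocyte genes in the Ly6c2 difference was not tested.

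Some other marker sums did not overlap between genotypes. Of all single genes tested, 5.53% stood wholly above and 5.39% wholly below wild type without IFN-beta, and 7.58% and 7.6% with it. Without IFN-beta, 8 of 10 natural killer genes were listed and summed to 35.5 to 43.0 normalized counts in the libraries labelled Morrbid-/- and 19.7 to 25.2 in wild-type libraries. Most of that sum was Kit, the stem cell factor receptor, which averaged 31.6 ± 4.83 and 11.8 ± 3.73 (log2 1.38, limma adjusted p = 0.025, not called by DESeq2), while the defining Ncr1 and Klra8 were at 0. Neutrophil genes, 6 of 14 listed, summed to 30.1 to 32.8 and 23.2 to 29.1, with S100a8 at 1.02 to 3.04 and 0 to 0.764. Cxcr2, the only neutrophil gene to reach the filter, averaged 21.2 ± 4.48 and 20.5 ± 3.37 (limma adjusted p = 0.988). The part of these genes in the Ly6a difference was not tested.

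With IFN-beta, 6 of 12 B cell genes were listed and summed to 427 to 457 normalized counts in the libraries labelled Morrbid-/- and 550 to 611 in wild-type libraries. Most of that sum was Ighm, which fell to 373 ± 11.9, against 509 ± 29.5 in wild-type libraries (limma adjusted p = 3.24e-04). Of the 4 B cell genes tested, 2 were called lower by limma and 0 higher. The log2 difference was above 0 for 2 of the 4, with a median of 0.03. Cd79a had 11.7 to 27.5 normalized counts in the libraries labelled Morrbid-/- and 5.84 to 16.5 in wild-type libraries. Dendritic cell genes, 6 of 13 listed, summed to 128 to 154 and 90.9 to 124, and Zbtb46 averaged 47.2 ± 3.87 and 14.5 ± 8.66 (limma adjusted p = 3.24e-04). The defining Flt3, Xcr1 and Clec9a were not listed. CD4 T cell genes, 4 of 6 listed, summed to 759 to 928 and 632 to 738. Most of that sum was Ikzf2, which averaged 819 ± 64.2 and 675 ± 50 (limma adjusted p = 0.0164). The defining Cd4 and Zbtb7b were not listed. Of the 2 CD4 T cell genes tested, 1 had a log2 difference above 0. Neutrophil genes were not analysed here with IFN-beta. The part of these genes in the Ly6a, Ly6c2 and Ly6e differences was not tested.

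The genes most like each member were found by Pearson's r of log2(normalized count + 1), centred in each table, over the 14 libraries. They describe these libraries, since every gene that differs between genotypes shares that difference. Among 9077 other genes, Ly6a was most like Gbp10 (r = 0.956), Olfr56 (0.953), Usp18 (0.95), Iigp1 (0.942) and Cd86 (0.939). Ly6e was most like Tmem181b-ps (0.919), H2-Q7 (0.9), Pim2 (0.898), Gfpt1 (0.889) and Sf3a2 (0.885). Ly6c2 was most like Cdk5rap1 (0.938), Syvn1 (0.914), Jak2 (0.889), Cwc15 (0.88) and Slc35g1 (0.87). For Ly6c1, with few reads, the highest r was 0.898 with Dlgap5 and the next 0.771 with Zxda.

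Among the members themselves, r was 0.784 for Ly6c2 with Ly6e, 0.765 for Ly6a with Ly6e and 0.572 for Ly6a with Ly6c2, over the same 14 libraries. Ly6c1 had r of 0.398 with Ly6a, 0.104 with Ly6c2 and 0.0156 with Ly6e. The near-identical Ly6c pair was thus among the least alike pairs, with Ly6c1 resting on single-digit reads in most libraries.

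RefSeq promoter windows on GRCm38.p6, from 250 bases before to 50 bases after a start, were at hand for Ly6c1 and Ly6c2, each with 2 starts. The core of the interferon-stimulated response element, searched as GAAA, any 2 bases and GAAA on either strand, was in 0 of 2 windows of each gene and in 1131 of 32851 windows of all genes (3.44%). The gamma-activated site, TTCNNNGAA on either strand, was in 0 of 2 windows of each and in 2726 of all windows (8.3%). No match says only that these letters are not in these 300-base windows. Ly6a and Ly6e windows were not analysed here.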

How the data were processed

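The authors deposited 1 table of normalized counts with IFN-beta and 1 without it, scaled separately, and these values are a non-negative signal. Trimmomatic, STAR 2.5, featureCounts, DESeq2 and the builds GRCm38 and mm10 are named in the submitters' processing notes, with no role given. No source used here gives the strand setting or the treatment of reads that match several genes. Each library's deposited signal was a whole multiple of 1 step, and dividing by it gave whole reads, within 0.01, for 100% of values.

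Within a table, genotypes were compared by limma 3.58.1 (R 4.3.3) with a mean-variance trend, on log2(normalized count + 1), for genes whose mean reached 10. This scale understates the change of low genes. P-values were Benjamini-Hochberg adjusted over all genes tested, with a threshold of 0.05. The fit was tested on simulated data. Rows without a symbol, 222 without IFN-beta and 138 with it, stayed in the fit. On the recovered reads, DESeq2 1.42.0 and edgeR 4.0.16 (quasi-likelihood) were alternatives. No replicate pair agreed within sampling noise (chi-square per degree of freedom 1.81 to 8.46). The change between stimulations came from 1 limma fit of the 14 libraries over 9080 genes.

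The members and gene lists were chosen with earlier results of these data known. All 4 members were named, and from each list up to 4 passing genes with the largest difference, or else up to 2 with the smallest p, and not all of these are printed. Transcript sequences and lengths came from GENCODE M21.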

Additional observations from a re-analysis of the deposited data

Results flagged for a closer look

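Ly6c1 in wild-type libraries with IFN-beta held 1 library far from the others. Replicate 1 had 14.2 normalized counts (12 reads), while replicates 2, 3 and 4 had 3.07, 4.67 and 3.91 (3, 4 and 4 reads), and its gap to the next library was 0.856 of the whole range, past Dixon's 95% critical value. In the same library the share of Ly6c2 among reads of the pair was 82.9%, the lowest with IFN-beta. Of 12 combinations of measure and group checked, 1 was flagged, and chance flags about 1 in 20.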

How the results depend on the processing

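The log2 differences of Ly6a, Ly6c2, Ly6e and the Ly6c sum kept their direction under every alternative run and whichever library was left out. That of Ly6c1 with IFN-beta did not, and was 0.10 with the mitochondrial 16S share as a covariate. Because the genotypes did not overlap for Ly6a, Ly6c2, Ly6e and the sum, leaving out a library or changing the pseudocount could not turn their direction. Blocking on the replicate number and dropping the mean-variance trend could not do so either. Ly6c1 without IFN-beta, at 0 in all wild-type libraries, was given no fold and was not recomputed. Over the alternatives with IFN-beta, Ly6a ranged from 0.70 to 0.77, Ly6c2 from 0.96 to 1.14 and Ly6e from 0.31 to 0.36. With a pseudocount of 5, Ly6a was 2.10 without IFN-beta, and its change between stimulations was -1.39. Leaving out each library gave Ly6a 0.65 to 0.76, Ly6c2 0.91 to 1.13, Ly6e 0.28 to 0.35, the Ly6c sum 0.81 to 1.06 and Ly6c1 -0.48 to 0.21 with IFN-beta. Without IFN-beta it gave Ly6a 2.92 to 3.83, Ly6c2 0.34 to 0.84, Ly6e 0.40 to 0.50 and the sum 0.60 to 1.00. For the change between stimulations it gave Ly6a -3.12 to -2.22, Ly6c2 0.17 to 0.67 and Ly6e -0.19 to -0.08.

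Counts over all genes moved more. Without IFN-beta, 50 genes were higher and 9 lower, 13 and 4 without the mean-variance trend, 5 lower at a mean of at least 50, and 32 lower with the 16S covariate. The edgeR test on recovered reads called 50 and 9 genes. With IFN-beta, 523 were higher and 482 lower, 171 and 134 without the trend, 511 and 500 by edgeR, and 730 and 344 after rescaling to equal totals. Leaving out each library gave 31 (without replicate 2 labelled Morrbid-/-) to 52 higher and 6 to 23 lower (23 without replicate 1 labelled Morrbid-/-, 18 without wild-type replicate 3) without IFN-beta. With IFN-beta it gave 321 to 555 higher and 288 to 466 lower, the lowest of both without replicate 2 labelled Morrbid-/-. The cause of these moves was not tested.

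Whether replicate numbers pair the libraries was not settled, and the main fit did not use them. Same-numbered deviations correlated at 0.204, -0.021 and 0.153 without IFN-beta, against -0.2 to 0.0595 for different numbers. With IFN-beta they correlated at 0.0033 to 0.141, against -0.0794 to 0.037 for different numbers. With the replicate block 94 genes were higher and 75 lower without IFN-beta, against 50 and 9 in the main fit. With IFN-beta the block gave 730 and 691, against 523 and 482. Each replicate number holds a library of each genotype, so the block could change the SEs of the members' differences but not the differences themselves. Within the 3 libraries of high and the 3 of low 16S share without IFN-beta, a split chosen after seeing the data, Ly6a was 2.89 and 3.90, Ly6e 0.45 and 0.37 and Ly6c2 0.28 and 0.76. One genotype has 1 library in each of these sets, so these are values without a spread. Read numbers limit Ly6c1 in both tables and Ly6c2 and wild-type Ly6a without IFN-beta.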
